A study of Mus musculus with 22 samples.

Results

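The 10 genes described here, Glul, Slc1a2, Slc1a3, Apoe, Ndrg2, Aldoc, Gfap, Clu, Mt2 and Cst3, are markers of astrocytes. Their rows were found by gene symbol in both deposited expression tables of a mouse hippocampal series, 10 of 29848 genes. The genes were chosen from measured values of these libraries: their levels in dendrite against soma samples and in antibody-bound against unbound RNA were known when they were put together. Those contrasts are therefore given as a description of the 10 genes, with no test. The difference between fear conditioned and home cage mice was not part of the choice and was tested.

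The mice were Camk2a-tTA/tetO-EGFP-L10a double transgenics on a C57BL/6 background. In this design the Camk2a promoter drives an activator that switches on an EGFP-tagged ribosomal protein, L10a, so the tag is placed in excitatory forebrain neurons. Dendrites and soma of hippocampal CA1 were dissected, and tagged ribosomes were captured with the anti-GFP antibody HtzGFP-19C8. Immunoprecipitates hold the RNA bound to the antibody, and supernatants hold the RNA left behind. There were 2 libraries each of fear conditioned dendrite, home cage dendrite, fear conditioned soma and home cage soma immunoprecipitate, and 1 library each of fear conditioned dendrite, home cage dendrite and fear conditioned soma supernatant. Every library came from mice carrying both transgenes; tissue without the tag was not analysed here. The labels give neither age, sex, the time after conditioning, nor whether each library came from its own animals, and p-values measure only the spread between these libraries, which may be technical. In bulk samples of this kind, fewer cells of a type and less RNA per cell cannot be told apart.

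Astrocytes take up the glutamate that neurons release and turn it into glutamine, which goes back to neurons for reuse. They also secrete lipoproteins and protease inhibitors, carry much of the brain's metal buffering, and hold a cytoskeleton of intermediate filaments. In CA1 their cell bodies and fine processes lie among the dendrites of the pyramidal neurons, while the cell body layer is packed with neuronal somata. Some of their RNAs, that of Slc1a2 among them, are known to be carried into the fine processes that wrap synapses.

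Each of the 11 libraries was sequenced in 2 runs, as paired ends and as single ends, and the unit of both tables is FPKM, a level per length and per depth. Main values are from the paired-end table and its coding part, which runs from the 5′ UTR through the coding sequence into the first 201 bases of the 3′ UTR. They were divided by a scaling factor per library and are called scaled FPKM below. Depth as read totals is unknown. In the low values of long genes, a single counted fragment was worth less in the paired-end than in most single-end libraries; for the 10 genes 1 such step was worth 0.00431 to 0.158 FPKM in the paired-end and 0.022 to 3.43 FPKM in the single-end table. Between 3220 and 12205 genes were above 0 in immunoprecipitates, and between 10344 and 13164 in supernatants. Home cage immunoprecipitates had fewer than fear conditioned ones. In dendrites 12205 and 6147 genes were above 0 in fear conditioned and 3344 and 4695 in home cage libraries. In soma it was 9267 and 9211 against 5006 and 3220. Values of 0 in home cage immunoprecipitates are to be read beside these counts. In home cage soma immunoprecipitate 2, Rpsa took 74.0% of the summed FPKM, and in fear conditioned dendrite immunoprecipitate 1, Mir135b took 26.9%. Fear conditioned dendrite immunoprecipitate 1 also stood apart in its profile over 2938 genes: its correlation with home cage dendrite supernatant 2 was 0.68, against 0.29 to 0.39 for the other dendrite immunoprecipitates.

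Further markers of astrocytes were read in the same libraries, and the label of the genes was not tested with them. Of 32 others listed, Aqp4, the water channel of astrocyte endfeet, had 2.00 and 1.93 scaled FPKM in fear conditioned dendrite immunoprecipitates, 0 and 0.0385 in home cage dendrite immunoprecipitates, and 4.15 and 4.18 in the dendrite supernatants. Gja1, a gap junction protein of astrocytes, had 17.1 and 4.26 scaled FPKM in fear conditioned and home cage dendrite supernatant, and at most 2.099 in any immunoprecipitate. Aldh1l1, a folate enzyme restricted to astrocytes in the brain, was listed at 0 in 3 of 4 dendrite immunoprecipitates and reached 1.97 and 0.864 in the dendrite supernatants. These 3 markers, picked after their values were seen, were present in unbound dendrite RNA and lower or at 0 in bound RNA. Of all 32, 0 to 16 were at 0 in fear conditioned and 15 to 21 in home cage dendrite immunoprecipitates. The home cage libraries had fewer genes of any kind above 0. In the dendrite supernatants none was at 0. Not all of the 32 followed the 3 named markers. Atp1b2 had 6.92 scaled FPKM in home cage dendrite immunoprecipitate 2, above the 6.45 and 4.35 of fear conditioned and home cage dendrite supernatant. Its other dendrite immunoprecipitates had 2.65 and 3.24 in fear conditioned mice and 0 in home cage dendrite 1. Mt1 had 63.1 scaled FPKM in home cage dendrite immunoprecipitate 1, against 82.7 and 30.1 in fear conditioned and home cage dendrite supernatant. Mt3 had 6.45 in fear conditioned dendrite immunoprecipitate 2, against 0.561 and 12.6 in these supernatants. Sparcl1 was lower in every dendrite immunoprecipitate than in both.

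As a group, the 10 genes filled a larger part of dendrite than of soma libraries, in bound and unbound RNA alike. They made up 0.638 to 0.995% of the summed coding FPKM in the 4 dendrite immunoprecipitates and 0.00682 to 0.284% in the 4 soma immunoprecipitates. In the unbound RNA they made up 1.98 and 1.49% of the fear conditioned and home cage dendrite supernatant, and 0.179% of the soma supernatant. The dendrite and soma ranges did not overlap, and the supernatants of dendrites lay above every immunoprecipitate. Without each library's most abundant gene the shares were 0.683 to 1.36% in dendrite immunoprecipitates, 0.0262 to 0.304% in soma immunoprecipitates, 2.21 and 1.99% in the dendrite supernatants and 0.210% in the soma supernatant. In the single-end runs dendrite and soma immunoprecipitates overlapped, at 0.112 to 0.387% in dendrite and 0.00411 to 0.123% in soma immunoprecipitates, while the supernatants had 1.31 and 1.57% in fear conditioned and home cage dendrites and 0.123% in soma.

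**Figure D1:**
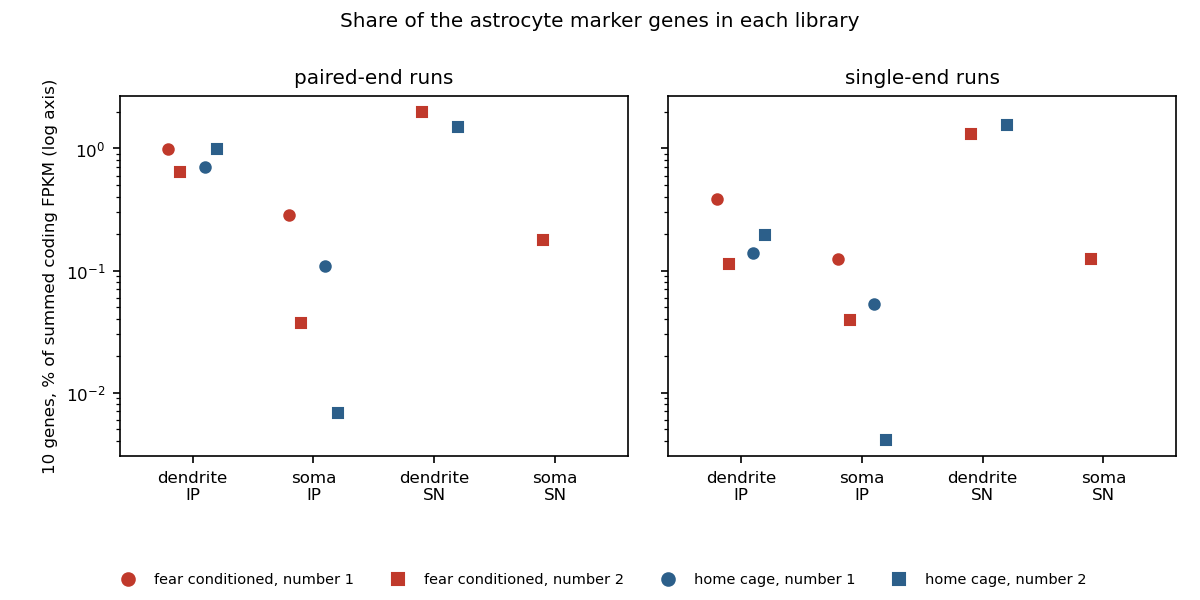
Share of the 10 genes in the summed coding FPKM of each library (percent, log axis), paired-end runs left and single-end runs right, 1 point per library, fear conditioned in red and home cage in blue, for immunoprecipitates (IP) and supernatants (SN). In the paired-end runs dendrite IPs lie at 0.638 to 0.995%, soma IPs at 0.00682 to 0.284%, and the dendrite supernatants highest, at 1.98 and 1.49% in fear conditioned and home cage mice.

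Among the genes of glutamate handling, Glul was the steadiest. Glul encodes glutamine synthetase, the enzyme that turns glutamate into glutamine; it lies on mm9 chromosome 1, 155747075 to 155756844, on the plus strand. It had 37.9 and 46.2 scaled FPKM in fear conditioned dendrite immunoprecipitates, 63.6 and 33.4 in home cage dendrite immunoprecipitates, 3.18 and 1.49 in fear conditioned soma immunoprecipitates, and 2.34 and 1.25 in home cage soma immunoprecipitates. Every dendrite library stood above every soma library, with no overlap. In the supernatants Glul had 91.6 scaled FPKM in fear conditioned dendrites, 87.8 in home cage dendrites and 5.15 in fear conditioned soma, so the unbound RNA of dendrites held more Glul than any of the bound RNA.

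The transporters that clear glutamate from the synapse spread more widely between libraries. Slc1a2, the main glutamate transporter of forebrain astrocytes (chromosome 2, 102498840 to 102630941, plus strand), had 108 and 5.65 scaled FPKM in fear conditioned dendrite immunoprecipitates and 32.4 and 37.3 in home cage dendrite immunoprecipitates. Its soma immunoprecipitates had 6.66 and 0.372 scaled FPKM in fear conditioned mice and 5.40 and 2.79 in home cage mice. A single dendrite library, fear conditioned 2, lay inside the soma range. The supernatants had 33.4 scaled FPKM in fear conditioned dendrites, 29.9 in home cage dendrites and 4.59 in soma.

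Slc1a3, the second glutamate transporter of astrocytes (chromosome 15, 8584124 to 8660807, minus strand), had 9.79 and 3.20 scaled FPKM in fear conditioned dendrite immunoprecipitates, 0.229 and 57.5 in home cage dendrite immunoprecipitates, 0.403 and 0.0850 in fear conditioned soma immunoprecipitates, and 14.7 and 0 in home cage soma immunoprecipitates. Dendrite and soma therefore overlapped: home cage soma 1 was above 3 of the 4 dendrite libraries. The supernatants were more even, at 14.1 and 9.95 scaled FPKM in fear conditioned and home cage dendrites and 1.27 in soma.

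The secreted proteins came next. Apoe, the main apolipoprotein of the brain (chromosome 7, 20281593 to 20284515, minus strand), had 19.1 and 4.18 scaled FPKM in fear conditioned dendrite immunoprecipitates, 9.29 and 37.0 in home cage dendrite immunoprecipitates, 0.571 and 0.138 in fear conditioned soma immunoprecipitates, and 0.253 and 1.499 in home cage soma immunoprecipitates. All 4 dendrite values exceeded all 4 soma values. Fear conditioned and home cage dendrite supernatants had 46.9 and 40.3 scaled FPKM, above every immunoprecipitate, and the soma supernatant had 2.24.

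Clu, an extracellular chaperone also carried on lipoproteins (chromosome 14, 66587320 to 66600382, plus strand), had 9.60 and 1.18 scaled FPKM in fear conditioned dendrite immunoprecipitates and 100.3 and 4.16 in home cage dendrite immunoprecipitates. In soma immunoprecipitates it had 2.07 and 3.20 scaled FPKM in fear conditioned mice and 9.73 and 1.75 in home cage mice, so dendrite and soma overlapped. Cst3, a secreted inhibitor of cysteine proteases (chromosome 2, 148697468 to 148701204, minus strand), had 4.84 and 1.62 scaled FPKM in fear conditioned dendrite immunoprecipitates and 0 and 12.1 in home cage ones, against 1.18 and 0.208 in fear conditioned soma and 0 and 1.34 in home cage soma immunoprecipitates. The unbound dendrite RNA was more even for both genes: Clu had 17.5 and 20.1 scaled FPKM and Cst3 6.99 and 11.7 in fear conditioned and home cage dendrite supernatant. In the soma supernatant Clu had 1.89 and Cst3 1.904 scaled FPKM.

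Of the metabolic and stress genes, Ndrg2 separated dendrite from soma and Aldoc did not. Ndrg2, a stress-responsive protein of astrocytes (chromosome 14, 52524946 to 52533163, minus strand), had 9.59 and 58.2 scaled FPKM in fear conditioned dendrite immunoprecipitates, 29.8 and 16.9 in home cage ones, and at most 1.99 in soma immunoprecipitates. Aldoc, the brain form of the glycolytic enzyme aldolase (chromosome 11, 78136682 to 78140262, plus strand), had 11.1 and 20.3 scaled FPKM in fear conditioned dendrite immunoprecipitates and 34.4 and 55.1 in home cage ones, against 43.6 and 0.268 in fear conditioned soma and 0 and 0 in home cage soma immunoprecipitates. Fear conditioned soma 1 was the exception for Aldoc, with a level inside the dendrite range. In the fear conditioned and home cage dendrite supernatants Ndrg2 had 36.2 and 24.5 scaled FPKM and Aldoc 40.2 and 22.5, against 3.39 for Ndrg2 and 4.32 for Aldoc in the soma supernatant.

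Mt2, a metallothionein that binds zinc and copper (chromosome 8, 96696518 to 96697467, plus strand), had 15.3 and 28.0 scaled FPKM in fear conditioned dendrite immunoprecipitates and was listed at 0 in both home cage dendrite immunoprecipitates. In soma it had 1.17 and 0 scaled FPKM in fear conditioned immunoprecipitates and was listed at 0 in both home cage ones. The supernatants had 57.8 and 19.8 scaled FPKM in fear conditioned and home cage dendrites and 1.04 in soma. Unbound Mt2 was therefore detected in home cage dendrites where bound Mt2 was listed at 0. Gfap, the intermediate filament protein of astrocytes (chromosome 11, 102748650 to 102758514, minus strand), had 2.87 and 4.99 scaled FPKM in fear conditioned dendrite immunoprecipitates, 0.124 and 0.0572 in home cage ones, and 0.0318 to 0.599 in soma immunoprecipitates. Its mean over the 4 dendrite immunoprecipitates was the lowest of the 10 genes, though not its level in each of them, and it had 13.8 and 5.92 scaled FPKM in fear conditioned and home cage dendrite supernatant and 0.545 in the soma supernatant.

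**Figure D2:**
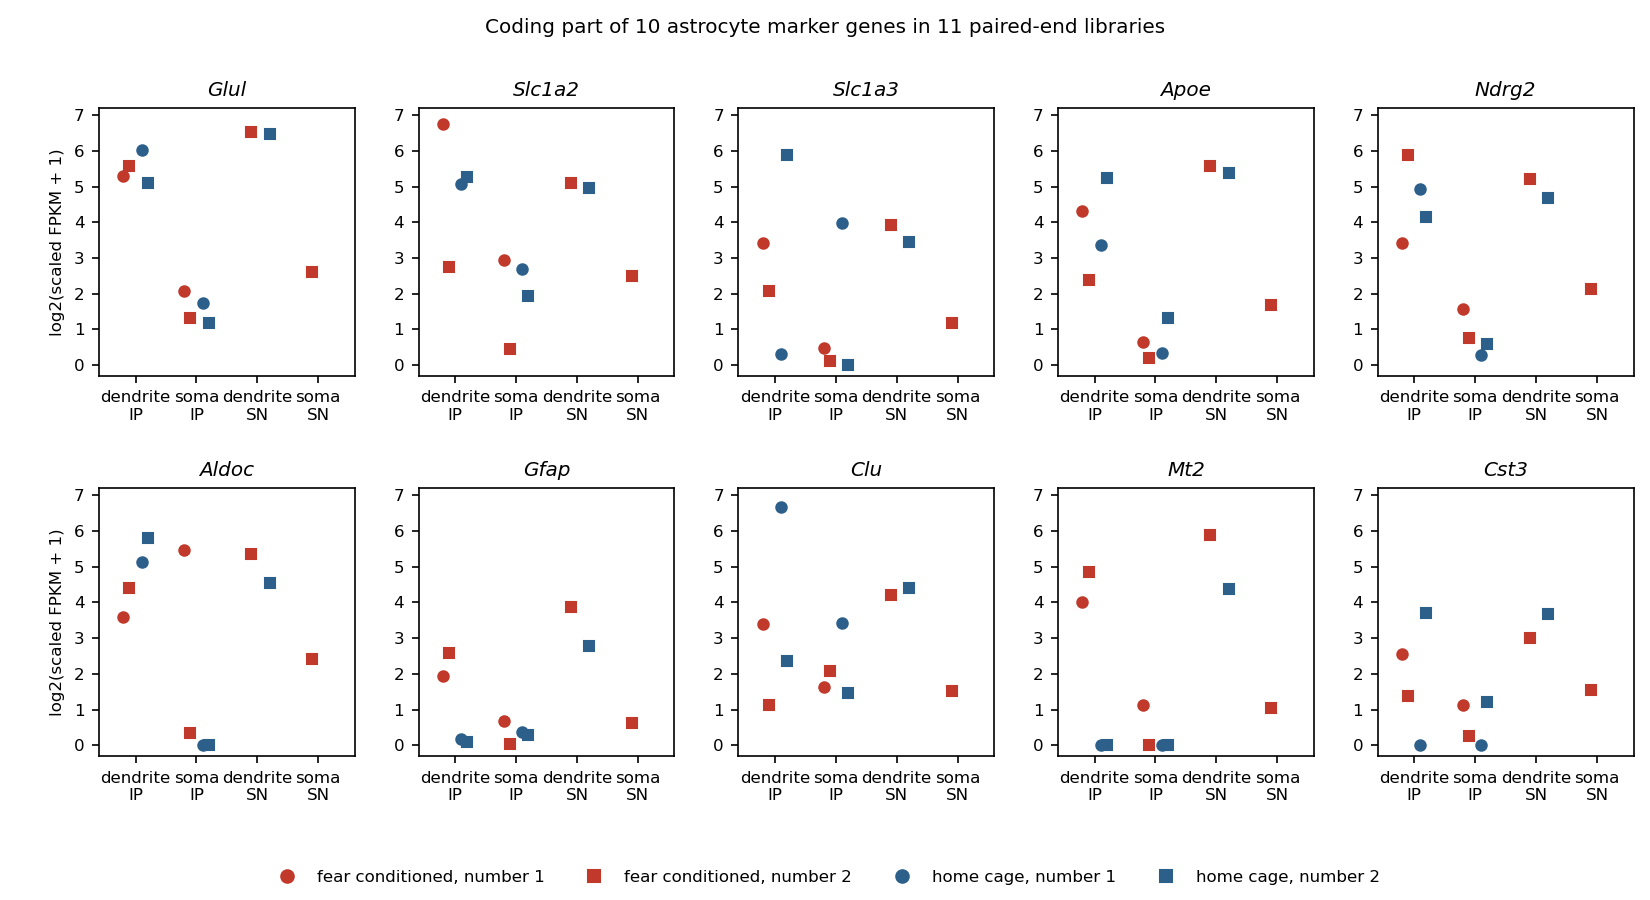
Coding-part level of each of the 10 genes as log2(scaled FPKM + 1), 1 point per paired-end library, by dissection and fraction (IP, immunoprecipitate; SN, supernatant). Glul, Apoe and Ndrg2 are the genes whose 4 dendrite IP points all lie above their 4 soma IP points; Mt2 lies at 0 in both home cage dendrite IPs and at 15.3 and 28.0 scaled FPKM in the fear conditioned ones.

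Ranked by mean scaled FPKM in dendrite immunoprecipitates, the order was Slc1a2 at 45.8 ± 43.6, Glul at 45.3 ± 13.3, Aldoc at 30.2 ± 19.2, Clu at 28.8 ± 47.8, Ndrg2 at 28.6 ± 21.4, Slc1a3 at 17.7 ± 26.9, Apoe at 17.4 ± 14.5, Mt2 at 10.8 ± 13.5, Cst3 at 4.63 ± 5.36 and Gfap at 2.01 ± 2.38 (SD, n = 4 each). The ranges of every neighbouring pair in this order overlapped, so no step in it exceeded the spread between libraries. In the dendrite supernatants Glul stood first at 89.7 ± 2.70 scaled FPKM, followed by Apoe at 43.6 ± 4.66 and Mt2 at 38.8 ± 26.9, and Cst3 was last at 9.36 ± 3.35 (SD, n = 2 each).

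The dissection contrast compared dendrite with soma immunoprecipitates. On the log2(scaled FPKM + 1) scale all 10 genes were higher in dendrite than in soma, by 0.85 (SE 0.74) for Gfap to 3.92 (SE 1.05) for Glul, and the median over the genes was 2.45. Ndrg2 differed by 3.80 (SE 1.04), Aldoc by 3.29 (SE 1.24) and Apoe by 3.21 (SE 1.00); Clu differed by 1.25 (SE 1.22) and Cst3 by 1.26 (SE 0.97), about the size of their errors. Over all 2922 genes tested, 1250 were higher in dendrite and the median was -0.29. These signs are what the genes were chosen on. Leaving out the library resembling a supernatant, fear conditioned dendrite 1, gave a median of 2.15 over the 9 genes still measured, and leaving out home cage soma 2 gave 2.36. Glul, Apoe and Ndrg2, 3 of the 10, had every dendrite immunoprecipitate above every soma immunoprecipitate, a pattern that 1.88% of all genes had.

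The unbound RNA gave the same order of dissections. Between the 2 dendrite supernatants and the soma supernatant, the 10 genes were higher in dendrite by 1.77 (SE 1.62) for Cst3 to 5.25 (SE 1.67) for Mt2 on the log2(scaled FPKM + 1) scale, with a median of 2.98, against -0.03 over all 2938 genes. All 10 genes had both dendrite supernatants above the soma supernatant, as 33.0% of all genes did. The soma had a single supernatant, whose spread was assumed to be that of the other groups.

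Bound RNA was then compared with unbound RNA. In dendrites all 10 genes were lower in immunoprecipitates than in supernatants on the log2(scaled FPKM + 1) scale, from -0.07 (SE 1.38) for Slc1a2 to -2.14 (SE 0.88) for Gfap and -2.91 (SE 1.15) for Mt2. The median was -0.96, against -0.11 over all genes; the errors of 6 genes, Slc1a2, Aldoc, Ndrg2, Slc1a3, Clu and Glul, exceeded their differences. Glul, Apoe and Gfap, 3 of the 10, had all 4 dendrite immunoprecipitates below both dendrite supernatants, a pattern that 18.0% of all genes had. Of the 10, 6 had it in the single-end runs, Glul but neither Apoe nor Gfap among them. Across all genes, 0.0681% passed an adjusted p of 0.05 in this contrast (2 genes, limma). These were Gm3168 and AK193394, named after their values were seen, which are not among the 10 and were listed at 0 in the paired-end runs of all 8 immunoprecipitates. The single-end runs of the same libraries went against this: Gm3168 was the most abundant gene in 5 of the 8 immunoprecipitates, with 27.9 to 65.9% of the summed FPKM, and each of the 2 genes was listed at 0 in 2 of 8. In soma 7 of the 10 genes were lower in immunoprecipitates and 3 higher, with a median of -0.63 against 0.18 over all genes, and no gene passed the threshold (0%), with 28 at an unadjusted p under 0.05.

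Each immunoprecipitate was then set beside the supernatant of the same label number. In fear conditioned dendrites Ndrg2 was 1.61 times its supernatant level, while the other 9 were lower in the immunoprecipitate, down to 0.0892 times for Apoe and 0.0674 times for Clu. In home cage dendrites Slc1a3 was 5.78 times, Aldoc 2.45 times and Slc1a2 1.25 times the supernatant level, Cst3 and Apoe were near parity at 1.03 and 0.919 times, Glul was at 0.381 times and Gfap at 0.00966 times. In fear conditioned soma only Clu exceeded its supernatant, at 1.69 times, and the other 8 genes with a value above 0 lay between 0.0584 and 0.290 times. The median over the 10 genes on the log2(scaled FPKM + 1) scale was -1.46 in fear conditioned dendrites, -0.32 in home cage dendrites and -1.28 in fear conditioned soma. In the single-end runs the same medians were -1.58, -1.96 and -2.12, and most genes above their supernatant in the paired-end runs lay below it. There Ndrg2 was at 0.200 times in fear conditioned dendrites, Slc1a3 at 0.187, Slc1a2 at 0.288 and Cst3 at 0.342 times in home cage dendrites, and Clu at 0.220 times in fear conditioned soma. Aldoc in home cage dendrites, at 1.36 times, was above its supernatant in both runs. Apoe in home cage dendrites, at 1.64 times, and Gfap in fear conditioned dendrites, at 1.31 times, were above it in the single-end runs alone. Each of these is 1 library against 1, with no replicate check.

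**Figure D3:**
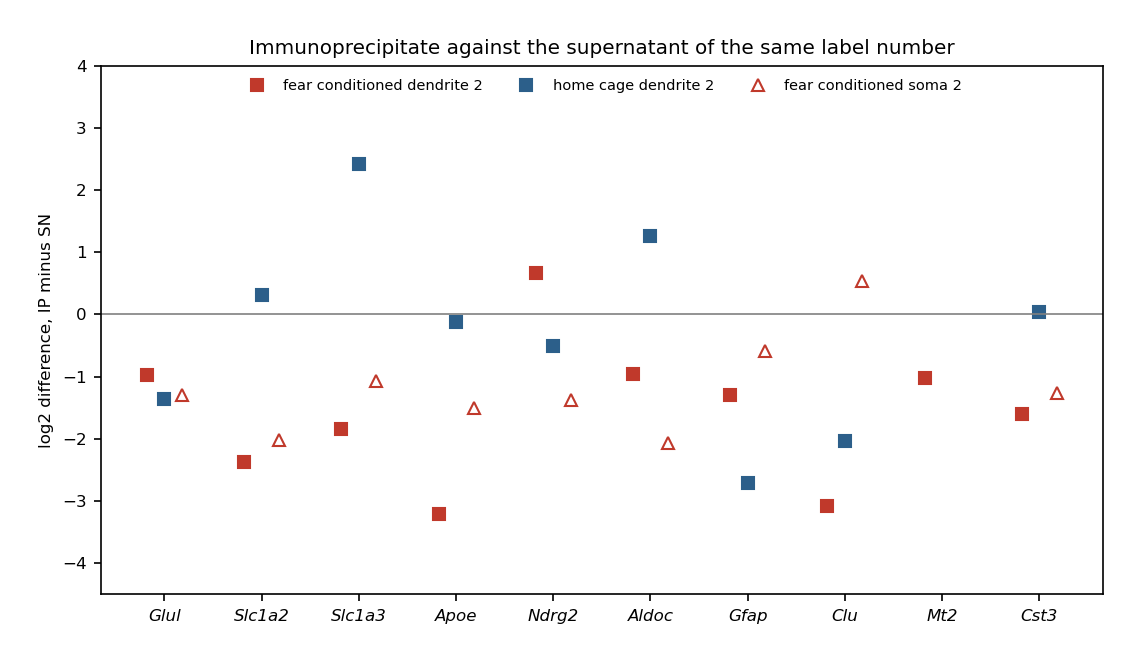
Difference on the log2(scaled FPKM + 1) scale between each immunoprecipitate (IP) and the supernatant (SN) with the same label number, for the 10 genes, paired-end runs; genes listed at 0 in the IP (Mt2 in home cage dendrite and fear conditioned soma) have no point there. Most points lie below 0; Slc1a3, Aldoc, Slc1a2 and, at 0.04, Cst3 in home cage dendrites, Ndrg2 in fear conditioned dendrites and Clu in fear conditioned soma lie above it.

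Fear conditioning was the contrast left to test, and none of the 10 genes passed it. In dendrite immunoprecipitates 4 were higher and 6 lower in fear conditioned than in home cage mice, with a median of -0.24 on the log2(scaled FPKM + 1) scale against 0.08 over all genes. Of all 2922 genes, 0% passed an adjusted p of 0.05 with limma and Benjamini-Hochberg adjustment, and 89 had an unadjusted p under 0.05, 52 higher and 37 lower. The sign of the median turned with the processing: it was 0.54 on FPKM as deposited and 0.70 in the single-end runs. The mean log2 scaling factor was 0.85 higher in fear conditioned than in home cage dendrite immunoprecipitates, and 2.42 higher in soma. Dividing it out lowered the difference of high values by about this much and that of low values by less. Values of 0 did not move.

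Mt2 and Gfap had both fear conditioned libraries above both home cage ones in dendrites. Each reached the minimum mean of 1 scaled FPKM over the immunoprecipitates only through fear conditioned libraries, so the filter fixed the direction of their difference. The home cage immunoprecipitates also had fewer genes of any kind above 0. Mt2, at 15.3 and 28.0 scaled FPKM in fear conditioned and listed at 0 in both home cage dendrite immunoprecipitates, had an unadjusted p of 0.00170 and an adjusted p of 0.954 (limma; 0.0880 to 1 over the alternatives, lowest without fear conditioned dendrite 1). The single-end runs of the same libraries listed 12.8 and 28.2 scaled FPKM in fear conditioned and 0 and 0 in home cage dendrite immunoprecipitates. Gfap differed by 2.14 (SE 1.05), with an adjusted p of 0.954 (limma; 0.646 to 1 over the alternatives). In the single-end runs Gfap had 1.10 and 41.9 scaled FPKM in fear conditioned and 9.47 and 2.91 in home cage dendrite immunoprecipitates, so the groups overlapped there. The supernatants, 1 library a group, had 57.8 and 19.8 scaled FPKM of Mt2 and 13.8 and 5.92 of Gfap in fear conditioned and home cage dendrites, which is 2.92 times for Mt2 and 2.32 times for Gfap. Their single-end runs had 71.8 and 46.3 scaled FPKM of Mt2, a smaller gap. For Gfap they had 32.0 in fear conditioned and 36.3 in home cage dendrites, the opposite order.

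The other 8 genes differed by less than, or close to, their errors in dendrites. Clu was lower in fear conditioned mice by 2.25 (SE 1.72), a value that turned to 1.77 higher in the single-end runs, and the home cage value of 100.3 scaled FPKM came from a single library. Aldoc was at 11.1 and 20.3 scaled FPKM in fear conditioned and 34.4 and 55.1 in home cage dendrite immunoprecipitates, a difference of -1.47 (SE 1.75). Apoe differed by -0.96 (SE 1.42), Slc1a2 by -0.41 (SE 1.73), Slc1a3 by -0.33 (SE 1.86), Glul by -0.14 (SE 1.49), Cst3 by 0.11 (SE 1.37) and Ndrg2 by 0.09 (SE 1.48). With errors above 1 on this scale, differences of 2-fold were not detectable in these libraries. Both fear conditioned libraries were above both home cage libraries for 2 of the 10 genes, Gfap and Mt2, and below them for 1, Aldoc; of all genes, 24.5% were above and 8.59% below.

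In soma immunoprecipitates 6 of the 10 genes were higher and 4 lower in fear conditioned mice, with a median of 0.06 against 0.17 over all genes. Aldoc had 43.6 and 0.268 scaled FPKM in fear conditioned and was listed at 0 in both home cage soma immunoprecipitates (adjusted p = 0.611, limma; 0.119 to 1 over the alternatives). In the single-end runs Aldoc had 3.72 and 0.859 scaled FPKM in fear conditioned and 39.7 and 2.20 in home cage soma immunoprecipitates. The groups overlapped there, and the difference was -1.95. The value of 39.7 came from home cage soma 1, listed at 0 in the paired-end run. Slc1a3 differed by -1.68 (SE 1.86) and Ndrg2 by 0.74 (SE 1.48). Ndrg2 and Aldoc, 2 of the 10, had both fear conditioned above both home cage libraries, a pattern of 29.3% of all genes, and none of the 10 had both below, a pattern of 10.3%. No gene passed the threshold (0%), with 176 at an unadjusted p under 0.05.

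Whether the fear conditioning difference was the same in dendrite and soma was tested as an interaction. No gene passed (0% of 2922, 84 at an unadjusted p under 0.05), and the smallest unadjusted p among the 10 was that of Mt2, 0.0302, with an adjusted p of 0.729 (limma; 0.218 to 0.850 over the alternatives). Gfap differed between dendrite and soma by 2.11 (SE 1.48), with an adjusted p of 0.729 (limma). Both genes reached the minimum mean only through fear conditioned libraries, mainly those of dendrites. The filter therefore favoured this direction, and the p-values of these genes are no support for it. The dissection contrasts had no gene past the threshold either, 0% among immunoprecipitates with 132 at an unadjusted p under 0.05, and 0% among supernatants with 31.

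**Figure D4:**
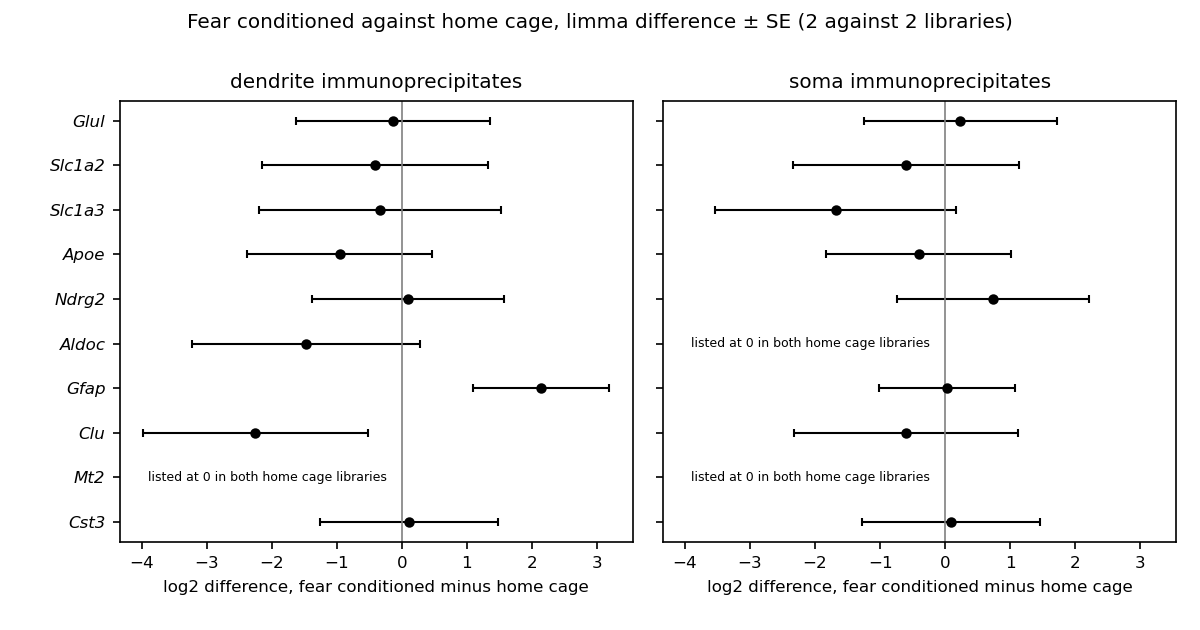
Fitted difference, fear conditioned minus home cage, on the log2(scaled FPKM + 1) scale, with its standard error (bars), in dendrite (left) and soma (right) immunoprecipitates, 2 against 2 paired-end libraries; genes listed at 0 in both home cage libraries have no point. Gfap in dendrites, at 2.14 (SE 1.05), and Clu, at -2.25 (SE 1.72), are the points furthest from 0; no gene passed an adjusted p of 0.05.

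Markers of other cells were read in the same libraries, and their part in these results was not tested. The 10 listed oligodendrocyte genes summed to 61.5 and 22.7 scaled FPKM in fear conditioned and 6.12 and 10.8 in home cage dendrite immunoprecipitates, against 119 and 112 in fear conditioned and home cage dendrite supernatant and 10.6 in the soma supernatant. Of these 10, 0 to 3 were at 0 in fear conditioned and 4 to 6 in home cage dendrite immunoprecipitates, which had fewer genes of any kind above 0. Of the oligodendrocyte genes, 6 of 6 tested were lower in dendrite immunoprecipitates than in supernatants, with a median of -1.94, and 6 of 6 were higher in dendrite than in soma supernatants. Of all 2938 genes, 1672 were lower in the first contrast and 1439 higher in the second. Only 4 of the 6 reached the minimum mean over the immunoprecipitates alone. For the others the filter favoured a lower level in bound RNA. Among immunoprecipitates they did not separate the dissections: their sum was 64.3 and 0.955 scaled FPKM in fear conditioned and 40.6 and 4.21 in home cage soma, and 2 of 4 tested were higher in dendrite than in soma, with a median of 0.14. The 10 microglia genes summed to 14.4 and 1.64 scaled FPKM in fear conditioned and 16.6 and 14.7 in home cage dendrite immunoprecipitates, with 0 to 7 of them at 0 and Cx3cr1 at 0 in 3 of these 4, and to 39.5 and 19.3 in fear conditioned and home cage dendrite supernatant. Ttr, the choroid plexus transthyretin, was at 114 scaled FPKM in fear conditioned dendrite immunoprecipitate 2 and at 0 in the other 3 dendrite immunoprecipitates.

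The neurons that carry the tag were read in the same way. The 10 listed genes of CA1 pyramidal neurons summed to 124 and 399 scaled FPKM in fear conditioned and 81.9 and 540.2 in home cage dendrite immunoprecipitates, and to 143 and 93.4 in fear conditioned and home cage dendrite supernatant. Camk2a, the kinase whose promoter drives the tag and whose RNA is known in dendrites, had 119 and 379 scaled FPKM in fear conditioned and 66.5 and 531 in home cage dendrite immunoprecipitates, against 138 and 84.4 in fear conditioned and home cage dendrite supernatant. Each of these sums was therefore mostly Camk2a. Of the 10 neuronal genes, 0 to 2 were at 0 in fear conditioned and 4 to 7 in home cage dendrite immunoprecipitates. The home cage libraries had fewer genes of any kind above 0. The 10 astrocyte genes summed to 228 and 174 scaled FPKM in fear conditioned and 270.1 and 254 in home cage dendrite immunoprecipitates, and to 358 and 273 in fear conditioned and home cage dendrite supernatant. Dendrite immunoprecipitates and supernatants overlapped for the neuronal sum, and over the 7 neuronal genes tested the median log2 difference between them was 0.02. For the astrocyte genes the highest immunoprecipitate sum, 270.1, lay just under the lower supernatant sum, 273, and on FPKM as deposited the sums overlapped, with 505 in fear conditioned dendrite immunoprecipitate 1 against 478 and 365 in fear conditioned and home cage dendrite supernatant.

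The 32 further astrocyte markers were mostly too low to test in bound RNA. Only 7 reached a mean of 1 scaled FPKM over the immunoprecipitates; 5 of these were higher and 2 lower in dendrite than in soma, with a median of 0.98. Over all 11 libraries 15 reached it, and all 15 were lower in dendrite immunoprecipitates than in dendrite supernatants, with a median of -1.57. Of these, 14 of 15 were higher in dendrite than in soma supernatants. Beyond the 7, these genes reached the mean only through supernatants, so the filter favoured a lower level in bound RNA. Of all 2938 genes, 1672 were lower in dendrite immunoprecipitates and 1439 were higher in dendrite than in soma supernatants. The most abundant were Mt1, Sparcl1, Mt3 and Atp1b2. Mt1, the neighbour and close relative of Mt2, had 18.4 and 14.0 scaled FPKM in fear conditioned and 63.1 and 4.00 in home cage dendrite immunoprecipitates, so it did not follow Mt2; the labels do not say how reads shared by related genes were handled.

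Partners of the 10 genes in their pathways were fewer and lower. Of 12 genes that release, carry or convert glutamate and glutamine, 4 could be tested among immunoprecipitates: none passed the threshold, and 3 of 4 were higher in dendrite than in soma. Glud1, the enzyme that oxidises glutamate, had 10.2 and 2.96 scaled FPKM in fear conditioned and 3.37 and 6.40 in home cage dendrite immunoprecipitates. Slc38a3, a glutamine exporter of astrocytes, had 0.235 and 16.0 scaled FPKM in fear conditioned and 0 and 0 in home cage dendrite immunoprecipitates, and 1.06 and 0.525 in fear conditioned and home cage dendrite supernatant; it reached the minimum mean through a single fear conditioned library. Of 11 lipoprotein partners of Apoe, Lrp1 and Apod could be tested: Lrp1, a receptor for Apoe, had 1.97 and 0.293 scaled FPKM in fear conditioned and 6.40 and 2.13 in home cage dendrite immunoprecipitates.

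The 3′ UTR beyond its first 201 bases was measured apart from the coding part, and 6 of the 10 genes had enough of it. Apoe and Mt2 had none and Clu and Cst3 only 30 bases, at 0 in every library, while the others had 208 bases (Aldoc) to 9052 (Slc1a2). In Glul the rest of the 3′ UTR, 1334 bases, was far above the coding part. It had 170 and 497 scaled FPKM in fear conditioned and 860 and 1053 in home cage dendrite immunoprecipitates, and 75.2 and 152 in fear conditioned and 471 and 17.9 in home cage soma immunoprecipitates. The supernatants had 921 scaled FPKM in fear conditioned dendrites, 338 in home cage dendrites and 72.3 in soma. The log2 ratio of this part to the coding part of Glul was 1.95 to 7.65 over the 11 libraries, with a median of 3.81, against a median of 0.38 for all genes with both parts at 1 FPKM or more. Dendrite and soma immunoprecipitates, separate in the coding part of Glul, overlapped in the rest of its 3′ UTR.

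The other genes varied in this ratio. In the paired-end runs the median log2 ratio was 3.27 for Ndrg2 with a range of -5.69 to 8.59, 1.65 for Slc1a2 with a range of -1.03 to 3.01, 1.53 for Gfap, 0.29 for Aldoc and 0.07 for Slc1a3, the last pair below the median of all genes. The medians in the single-end runs were 2.34 for Glul, 2.08 for Ndrg2, 1.39 for Slc1a2, 0.41 for Gfap, 2.53 for Aldoc and 0.77 for Slc1a3, against 0.16 for all genes. Slc1a2 was the steadiest of the 6 in the rest of the 3′ UTR, with 52.8 and 42.4 scaled FPKM in fear conditioned and 56.8 and 45.7 in home cage dendrite immunoprecipitates, and 106 and 94.0 in fear conditioned and home cage dendrite supernatant. Its soma immunoprecipitates had 18.0 and 2.98 scaled FPKM in fear conditioned and 24.1 and 2.97 in home cage mice. Of the 6 genes, Slc1a2 alone had every dendrite above every soma immunoprecipitate in this part, a pattern that 0.763% of all genes had there. Slc1a2 overlapped in the single-end runs, with 54.2 scaled FPKM in home cage soma 1 against 22.5 in home cage dendrite 2, and Glul was the one of the 6 that separated.

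Bound and unbound RNA of dendrites lay further apart in the rest of the 3′ UTR than in the coding part, except for Glul. The difference between dendrite immunoprecipitates and supernatants was -4.43 for Aldoc, -3.91 for Ndrg2, -3.23 for Slc1a3, -2.88 for Gfap and -1.01 for Slc1a2 on the log2(scaled FPKM + 1) scale, with a median of -3.06 over the 6 genes. Glul went the other way, at -0.09 here against -1.01 in its coding part. Except for Glul, these 6 genes had every dendrite immunoprecipitate below both dendrite supernatants in this part, as 25.7% of all genes did. The 5 with this pattern in the single-end runs were Glul, Slc1a3, Ndrg2, Aldoc and Gfap, without Slc1a2. An antisense transcript overlaps Glul and another overlaps Slc1a2; since the labels do not say whether counting used strand, reads of these pairs cannot be told apart. Their own coding FPKM was low, at most 2.74 for AK018918 at Slc1a2 and 0.0928 for AK044033 at Glul.

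**Figure D5:**
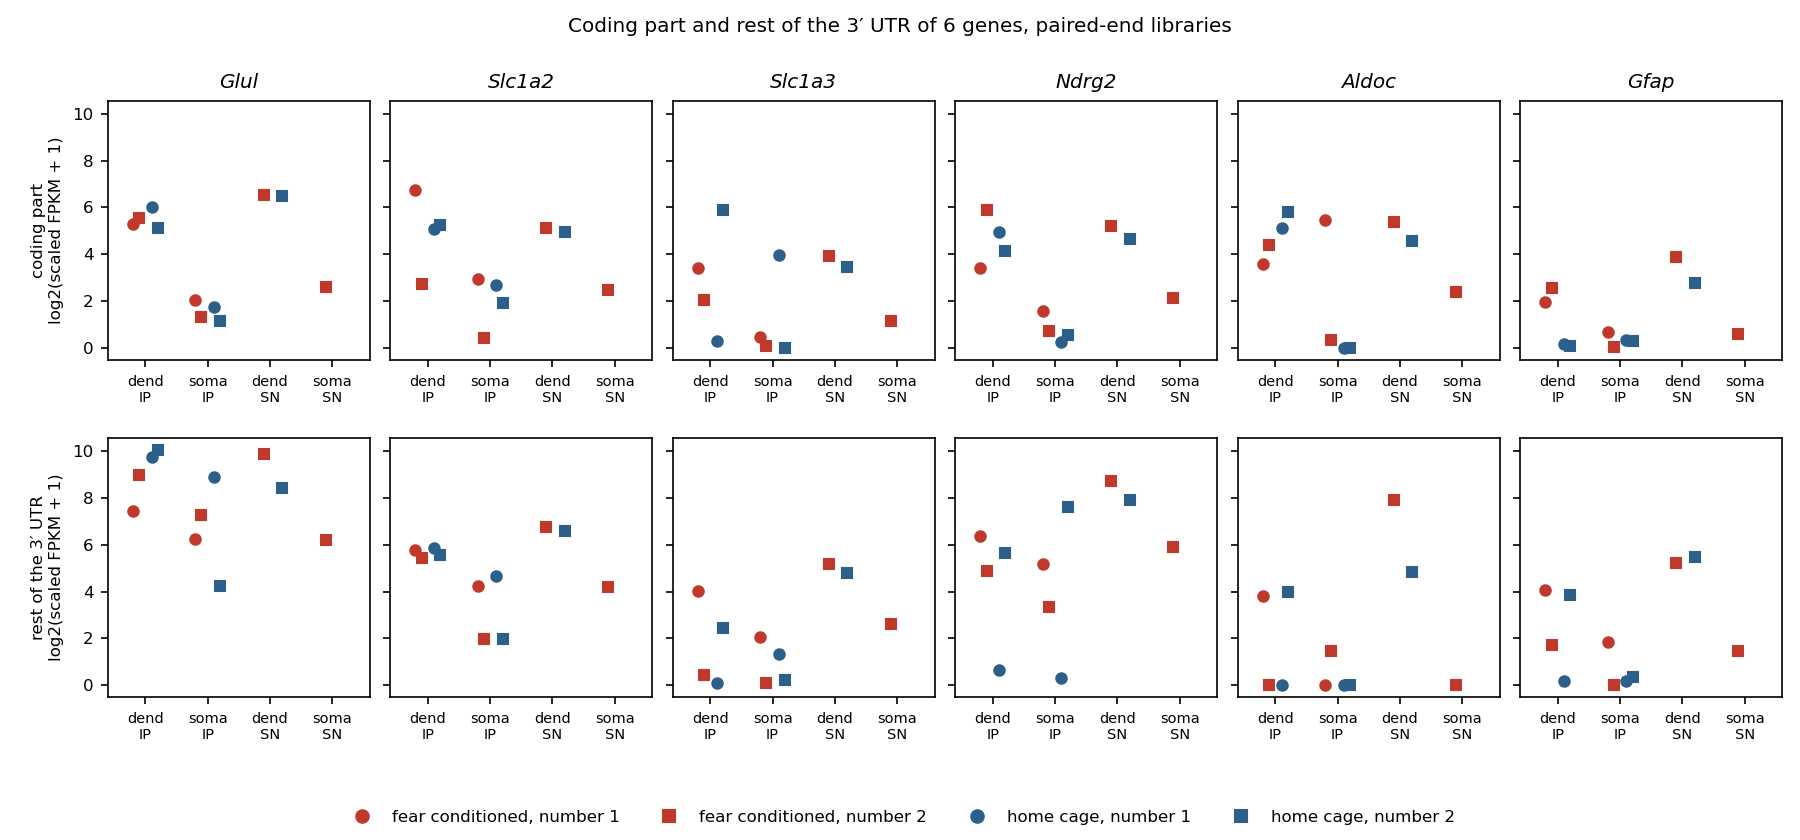
Level of the coding part (top) and of the rest of the 3′ UTR (bottom) of the 6 genes that have at least 200 bases of it, as log2(scaled FPKM + 1), 1 point per paired-end library, by dissection and fraction (dend, dendrite). Glul lies higher in the bottom than in the top panel in every library, and Aldoc is at 0 in the bottom panel in 5 of the 8 immunoprecipitates.

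The 2 runs of a library were read against each other, since both come from the same material. Of 80 values of the 10 genes in immunoprecipitates, 21 differed by more than 2 on the log2(scaled FPKM + 1) scale between paired-end and single-end runs, and 12 were at 0 in 1 run only. Of 30 values in supernatants, 3 differed by that much and none was at 0. A further 6 immunoprecipitate values were at 0 in both runs, and low values give small gaps on this scale. The widest gaps were Aldoc in home cage soma immunoprecipitate 1, at 0 in the paired-end and 39.7 scaled FPKM in the single-end run, and Clu in home cage dendrite immunoprecipitate 1, at 100.3 and 1.57 scaled FPKM. Cst3 was higher in the single-end run of all 3 supernatants, with 6.99 scaled FPKM in the paired-end and 64.9 in the single-end run of fear conditioned dendrite supernatant 2.

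The 10 genes did not all follow each other from library to library. Over the 11 libraries the Pearson r of log2(scaled FPKM + 1) between pairs of them had a median of 0.593 over 45 pairs, from 0.00513 for Clu with Cst3 to 0.983 for Gfap with Mt2; these libraries share dissections and depth, so the values are a description. Among 326 other genes with a mean of at least 10 scaled FPKM, the profile most like the mean of the 10 was that of Sparcl1, a secreted matrix protein of astrocytes, at r = 0.951. Next came mt-Nd4 at 0.913, Pcp4 at 0.846, Fam107a at 0.807 and Atpase6 at 0.784. None of those following Sparcl1 was among the listed astrocyte markers, so a like profile does not mark a cell type here. Sparcl1 had 20.02 and 8.54 scaled FPKM in fear conditioned and 19.8 and 14.3 in home cage dendrite immunoprecipitates, 8.24 and 0.541 in fear conditioned and 0.887 and 1.13 in home cage soma immunoprecipitates, 38.4 and 26.0 in fear conditioned and home cage dendrite supernatant, and 3.01 in the soma supernatant.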

How the data were processed

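Ribosome-bound (immunoprecipitate) and unbound (supernatant) RNA of hippocampal CA1 was turned into cDNA with Nugen's Ovation RNA-Seq System V2 and made into Illumina TruSeq libraries, per the labels' protocols. The deposited values are FPKM per gene, made by the authors; per the submitters' processing notes the tools were CASAVA 1.9, STAR 2.1.1d and Cufflinks 2.0.2 with the mouse build mm9, with no role or order given. Per the file headers each gene has a coding part, with 201 bases of the 3′ UTR in most transcripts, and a rest of the 3′ UTR. Amplified material and FPKM without counts mean that depth is unknown and no counting interval was given. Of 22 samples, 11 paired-end runs gave the main values, and the 11 single-end runs of the same libraries were a check, not replicates.

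From the deposited FPKM, a scaling factor per library was computed as the median ratio to the gene's geometric mean, over the 765 genes above 0 in all 11 libraries, and divided out. Differences were taken on log2(scaled FPKM + 1) with limma 3.58.1 (R 4.3.3, trended moderation, Benjamini-Hochberg over all genes with a mean of at least 1, threshold 0.05). A log2 fold change on this scale understates the change of low genes. Fear conditioned and home cage, their interaction and dendrite against soma were fitted over the 8 immunoprecipitates in 4 groups, with 2922 genes and 4 residual degrees of freedom; immunoprecipitate against supernatant over all 11 libraries with behaviour as a term, with 2938 genes. The fits were tested on simulated data before use. The members and the lists of partners and cell type markers were chosen with earlier results of these data known; all 10 members are named, of each further list the 4 most abundant genes at most and, for likeness, the 5 highest correlations, with Aqp4, Gja1, Aldh1l1 and Cx3cr1 added as defining markers after their values were seen. Alternatives were other pseudocounts, minimums and scalings, the single-end table, the rest of the 3′ UTR, robust moderation, a replicate block and leaving out each library.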

Additional observations from a re-analysis of the deposited data

Results flagged for a closer look

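In 5 of the 20 groups of 4 immunoprecipitates checked (10 genes, dendrite and soma), 1 library lay far from the other 3. The cutoff marks about 1 in 20 such groups by chance only if values are normally distributed. These were unlogged scaled FPKM, some at 0, and each group joined fear conditioned and home cage libraries. With 3 values at 0, as for Mt2 in soma, any level above 0 is marked. The chance rate here is therefore unknown, and no excess can be read from 5 of 20. Slc1a3 had 57.5 scaled FPKM in home cage dendrite immunoprecipitate 2, against 0.229 to 9.79 in the other dendrite immunoprecipitates, and the single-end run of that library had 4.85. Slc1a3 also had 14.7 scaled FPKM in home cage soma immunoprecipitate 1, against 0 to 0.403 in the other soma immunoprecipitates, and the single-end run had 139. Aldoc had 43.6 scaled FPKM in fear conditioned soma immunoprecipitate 1, against 0 to 0.268 in the others, and the single-end run had 3.72. Clu had 100.3 scaled FPKM in home cage dendrite immunoprecipitate 1, against 1.18 to 9.60 in the others, and the single-end run had 1.57. Mt2 had 1.17 scaled FPKM in fear conditioned soma immunoprecipitate 1 and was listed at 0 in the other 3, and the single-end run had 1.39. Only for Mt2 and for Slc1a3 in soma did the single-end run again place the library above the other 3.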

How the results depend on the processing

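No alternative brought any of the 10 genes past the threshold in the fear conditioning contrasts, and all 10 kept a higher level in dendrite than in soma, in immunoprecipitates and in supernatants, under every alternative that gave a value. Where both differences exceeded their errors, 2 changed sign in the single-end table: Clu in dendrites, 1.77 against -2.25, and Aldoc in soma, -1.95; the cause was not tested. Counts of called genes over all genes moved as follows. For fear conditioning in soma, 1 on FPKM as deposited and 0 to 168 on leaving out a library (89 without fear conditioned soma 2, 93 without home cage soma 1, 168 without home cage soma 2). For the interaction, 1 in the rest of the 3′ UTR. For dendrite against soma immunoprecipitates, 1 on FPKM as deposited, 1 in the single-end table and 0 to 112 on leaving out a library, the 112 without home cage soma 2. For dendrite immunoprecipitate against supernatant (2 in the main table), 1 with a pseudocount of 0.1 or 5 or a minimum of 5, 376 with no minimum, 10 in the single-end table, 0 with the rest of the 3′ UTR, and 0 to 2 on leaving out a library (0 without fear conditioned dendrite immunoprecipitate 1 or home cage dendrite supernatant 2); the median of the members became -3.06 in the rest of the 3′ UTR, over 6 genes. For soma immunoprecipitate against supernatant, 1 with a pseudocount of 0.1, a minimum of 5 or the rest of the 3′ UTR, 935 with no minimum and 10 in the single-end table. For dendrite against soma supernatants, 924 with no minimum, 6 in the single-end table and 1 with the rest of the 3′ UTR. Without the soma supernatant the last 2 comparisons have no value.

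Whether equal label numbers pair the libraries was not settled. Immunoprecipitates of the same group correlated at only 0.0756 to 0.417, so a shared source could go unseen. The correlation of the deviations of same-numbered libraries was -0.0138 between fear conditioned and home cage in dendrites and -0.00112 in soma. That of dendrite with soma libraries of the same behaviour and number was -0.0180 to 0.0527. Of the dendrite immunoprecipitates, 2 of 4 correlated best with the soma library of their own number, and 3 of 4 soma immunoprecipitates with the dendrite library of theirs. No immunoprecipitate was set against a supernatant in this check. With the replicate block, 1 gene was called between dendrite and soma immunoprecipitates and 1 between dendrite immunoprecipitate and supernatant, and no other count of called genes moved.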
